A study of Homo sapiens with 12 samples.

Results

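Transcripts of 8 transcription factors of the ETS family (ETV1, ETV4, ETV5, ETS1, ETS2, ELK1, ELK3 and ELK4) and of the repressor CIC were followed in pancreatic cancer cells after MEK inhibition. The 9 genes were picked by symbol, matched to the Ensembl identifiers of the count table, and make up 9 of its 58735 genes. All 9 were found, and all 9 were among the 16133 genes that passed the filter on low counts. KP4 and MiaPaca2 are established lines from human pancreatic ductal adenocarcinoma. Each line was cultured in DMEM with 10% serum, antibiotics and HEPES, and was given for 48 h either DMSO, the solvent, or trametinib at 100 nM, which blocks the kinases MEK1 and MEK2 upstream of ERK. The 4 groups, both lines with and without the drug, hold 3 poly(A) RNA libraries each. Nothing in the labels says that the 3 libraries came from separate cultures, so the p-values measure the spread between these libraries, which may be technical, and each line is a single model.

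Libraries held 20293688 to 28018129 counts. Levels are given as CPM, counts scaled to library size with TMM factors, per library or as mean ± SD of 3 libraries, and a gene is called where the adjusted p of edgeR's quasi-likelihood test was below 0.05. The 3 MiaPaca2 DMSO libraries differed from each other more than those of the other groups: compared in pairs, they gave chi-square values over degrees of freedom of 7.70 to 14.5, with the 2 higher values in the pairs that held replicate 2, against 2.02 to 2.89 elsewhere. The member counts given below were the same without MiaPaca2 DMSO replicate 2. Of 8 ductal markers, 5 or 6 reached 1 CPM in each group, while EPCAM and CFTR stayed below it, and the mesenchymal markers VIM, ZEB1 and CDH2 all reached it. The 4 acinar markers had 0 counts in every library. The ductal markers summed to 371 to 382 CPM with DMSO and 232 to 241 CPM with trametinib in KP4, and to 1842 to 2216 CPM and 851 to 858 CPM in MiaPaca2. The sums hide members that went the other way: of 7 that could be tested, 3 rose (KRT8, KRT19 and MUC1) and 2 fell (KRT18 and SOX9) in KP4, and 2 rose (EPCAM and MUC1) and 4 fell (KRT8, KRT18, KRT19 and SOX9) in MiaPaca2. Their part in the results below was not tested.

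ETS factors share a DNA-binding domain that reads a GGAA core. ERK acts on several of them directly: it phosphorylates ELK1, ELK3 and ELK4, the ternary complex factors that sit with SRF on immediate early genes, and it phosphorylates ETS1 and ETS2. The PEA3 subfamily, ETV1, ETV4 and ETV5, is mainly controlled at the level of its transcripts. CIC, an HMG-box protein, binds an octamer in the control regions of these genes and represses them, and ERK signalling lifts that repression. CIC works with its partners ATXN1 and ATXN1L, and the PEA3 proteins are degraded through the ubiquitin ligase COP1.

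Promoter sequences around these elements are shown first, because CIC and its targets are the regulatory pair on which the transcript data bear. RefSeq windows on GRCh38.p14, from 250 bases before to 50 bases after a transcript start, were matched by symbol for 6 of the 9 genes, which have 15 windows. ETV4, ETV5 and ETS1 had no entry and were not searched. Both strands were searched for the CIC octamers TGAATGAA, TGAATGGA, TCAATGAA and TCAATGGA, for the ETS letters CCGGAA and the longer CCGGAAGT that contains them, and for the CArG box, the SRF element. An octamer was found in 2 of the 15 windows, 1 each of ETV1 and CIC itself, and in 3.7675% of all 35116 windows. In the sequences below, printed on the strand of the gene, capitals mark CCGGAA and the octamer in ETV1, the octamer in DUSP6 and CIC, and CCGGAAGT in ELK4.
ETV1 (chr7:13991426-13991675, minus strand, all 250 bases before the start): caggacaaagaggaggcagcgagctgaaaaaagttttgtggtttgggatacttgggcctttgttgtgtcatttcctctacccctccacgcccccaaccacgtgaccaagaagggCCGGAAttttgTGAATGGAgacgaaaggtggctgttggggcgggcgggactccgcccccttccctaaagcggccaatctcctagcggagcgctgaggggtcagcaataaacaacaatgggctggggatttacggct
DUSP6 (chr12:89352502-89352545, minus strand): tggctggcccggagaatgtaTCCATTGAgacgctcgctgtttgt
CIC (chr19:42269225-42269252, plus strand): gctgctccagctgttgcaggTCCATTCA
ELK4 (chr1:205632012-205632071, minus strand): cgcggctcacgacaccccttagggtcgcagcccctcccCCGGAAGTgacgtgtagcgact
The ETV1 octamer is TGAATGGA and begins 125 bases before the start, 11 bases after the start of a CCGGAA match at 136. DUSP6, a phosphatase of ERK and a known CIC target, carries TCAATGGA on the opposite strand, and CIC carries TGAATGGA on the opposite strand, starting 7 bases before its RefSeq start and reaching the first base of the transcript. Of the CIC target list described below, 11 of 15 genes had a window (all but DUSP4, CCND1, CCND2 and FOSL1), and 4 of their 17 windows, 1 each of DUSP6, MAFF, SPRED3 and VGF, held an octamer. CCGGAA was found in 4 of the 15 member windows, of ETV1 and ELK4, and in 17.2% of all windows, CCGGAAGT in 1, of ELK4, and in 4.14%, and the CArG box in 0 and in 1.29%. The ETV1 windows chr7:13990653-13990952 and chr7:13990657-13990956 overlap and hold the same CCGGAA, 141 and 137 bases before their starts, so this site is counted in both. A match is a run of letters and not a measured binding site.

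The 3 PEA3 genes are close relatives, so the stretch in which their coding sequences are most alike is shown to judge whether reads could be shared. These 60 coding bases encode part of the ETS domain, and capitals mark the bases that are not the same in all 3.
ETV1 (coding bases 1231 to 1290): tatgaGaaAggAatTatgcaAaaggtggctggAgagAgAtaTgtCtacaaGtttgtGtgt
ETV4 (coding bases 1207 to 1266): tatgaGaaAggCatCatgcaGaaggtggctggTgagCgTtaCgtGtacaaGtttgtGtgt
ETV5 (coding bases 1288 to 1347): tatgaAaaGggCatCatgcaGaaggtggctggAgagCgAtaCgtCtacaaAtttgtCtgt
Of the 60 bases, 48 are identical in all 3 genes, and 11 of the 12 that differ are at the third codon position. The longest exact match between coding sequences was 33 bases for ETV4 and ETV5, 18 for ETV1 and ETV5 and 17 for ETV1 and ETV4. No run of 50 bases was shared between any of the 9 genes in the GENCODE 29 transcripts, and at most 3.41% of the 50-base runs of a member (ELK3) occurred in another gene. ETV4 shares 68 exon bases with DHX8 on the opposite strand, ETV5 shares 164 with DGKG on the same strand, ELK3 shares 209 with an antisense gene, and ELK4 shares 422 with MFSD4A on the opposite strand. Whether counting used strand is not given in the sources used here, so reads in those overlaps cannot be assigned with certainty.

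After trametinib the PEA3 genes were lower by 10 times or more in both lines, ELK3 was lower by less than 3 times, and CIC and ETS1 were higher. In KP4, 2 members rose (CIC and ETS1), 6 fell (ETV1, ETV4, ETV5, ELK1, ELK3 and ETS2) and ELK4 did not pass the test. Of all genes tested in KP4, 47.2% were called, 23.6% higher and 23.6% lower. In MiaPaca2, 3 members rose (CIC, ETS1 and ETS2) and 6 fell (ETV1, ETV4, ETV5, ELK1, ELK3 and ELK4), where 63.6% of all genes were called, 34.1% higher and 29.5% lower. Lower in both lines were 5 members (ETV1, ETV4, ETV5, ELK1 and ELK3), against 16.9% of all genes, and higher in both were CIC and ETS1, against 18.6%. The 3 libraries of DMSO and of trametinib did not overlap for 8 members in KP4 (all but ELK4), against 60.1% of all genes, and for 6 in MiaPaca2 (all but ETS2, ELK1 and ELK4), against 64.4%. A call is common in these data, so the size of the change is given for each member. Among all 16133 genes, 26 (0.161%) were called lower by at least 8-fold in both lines, and the 3 PEA3 genes are among them. In bulk RNA, fewer cells with a transcript and less of it per cell cannot be told apart.

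CIC (GRCh38 chr19:42268537-42295797), the repressor, rose in both lines. It stood at 209, 208 and 213 CPM in the KP4 DMSO libraries and at 317, 325 and 320.1 CPM in KP4 trametinib. In MiaPaca2 the levels were 150.1, 181 and 168 CPM in DMSO and 343, 327 and 321 CPM in trametinib. Every trametinib library lay above every DMSO library. The log2 fold change was 0.61 ± 0.05 (SE) in KP4 (edgeR adjusted p = 6.39e-11) and 0.99 ± 0.05 in MiaPaca2 (adjusted p = 1.88e-15). The rise was larger in MiaPaca2, by 0.38 ± 0.07 on the log2 scale (adjusted p = 7.24e-05). CIC was 1.26 times higher in KP4 than in MiaPaca2 in DMSO, and in trametinib the libraries of the lines overlapped (adjusted p = 0.444).

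ETV4 (chr17:43527844-43579620), a PEA3 factor known as an activator of matrix protease genes, showed the largest fall of the 9. Its levels were 123, 121 and 128 CPM in KP4 DMSO and 1.09, 1.12 and 1.04 CPM in KP4 trametinib. In MiaPaca2 they were 79.2, 75.7 and 79.4 CPM in DMSO and 1.26, 0.641 and 0.285 CPM in trametinib. The last 3 libraries rest on 31, 13 and 7 counts, so their order is poorly fixed, but all are far below the DMSO libraries. Without replicate 1, the library with 31 counts, the MiaPaca2 log2 fold change was -7.43. The ratio of means was 115 in KP4 and 107 in MiaPaca2, and the log2 fold changes were -6.84 ± 0.12 (edgeR adjusted p = 3.20e-22) and -6.72 ± 0.14 (adjusted p = 1.65e-21). The SE understate the uncertainty at so few trametinib counts: leaving out each library in turn gave MiaPaca2 values of -7.43 to -6.31. By size of fall ETV4 ranked 5 among all genes tested in KP4 and 4 in MiaPaca2.

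ETV5 (chr3:186046308-186110318), a PEA3 factor with roles in branching organs and germ cells, had 145, 142 and 142 CPM in KP4 DMSO and 1.90, 2.61 and 2.15 CPM in KP4 trametinib. In MiaPaca2 it had 129, 137 and 133 CPM in DMSO and 2.88, 1.38 and 2.12 CPM in trametinib. Groups were far apart in both lines. The means differed 64.4 and 62.6 times, with log2 fold changes of -6.01 ± 0.10 (edgeR adjusted p = 4.50e-24) and -5.94 ± 0.10 (adjusted p = 3.41e-24), rank 11 in KP4 and 8 in MiaPaca2. For ETV4 and ETV5 the responses of the lines differed by -0.12 ± 0.31 and -0.07 ± 0.19 (KP4 minus MiaPaca2, adjusted p = 0.822 and 0.810), which does not show that the responses were equal.

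ETV1 (chr7:13891228-13991425), the PEA3 factor known from gene fusions in prostate cancer and as a survival factor in gastrointestinal stromal tumours, fell less. The KP4 libraries had 41.6, 41.2 and 39.0 CPM with DMSO and 2.98, 2.05 and 2.93 CPM with trametinib. The MiaPaca2 libraries had 60.7, 55.8 and 57.3 CPM with DMSO and 5.92, 4.64 and 5.83 CPM with trametinib, and the conditions were far apart in both lines. The means differed 15.3 times in KP4 (log2 fold change -3.93 ± 0.11, edgeR adjusted p = 2.78e-20) and 10.6 times in MiaPaca2 (-3.39 ± 0.10, adjusted p = 2.38e-20), at ranks 34 and 41. KP4 had less ETV1 than MiaPaca2 in both conditions, with log2 differences of -0.51 ± 0.08 in DMSO and -1.05 ± 0.14 in trametinib. The responses differed by -0.53 ± 0.16 (adjusted p = 0.0094). Without KP4 trametinib replicate 2, the library with the lowest ETV1 level, this became -0.38 with an adjusted p of 0.0659.

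**Figure D1:**
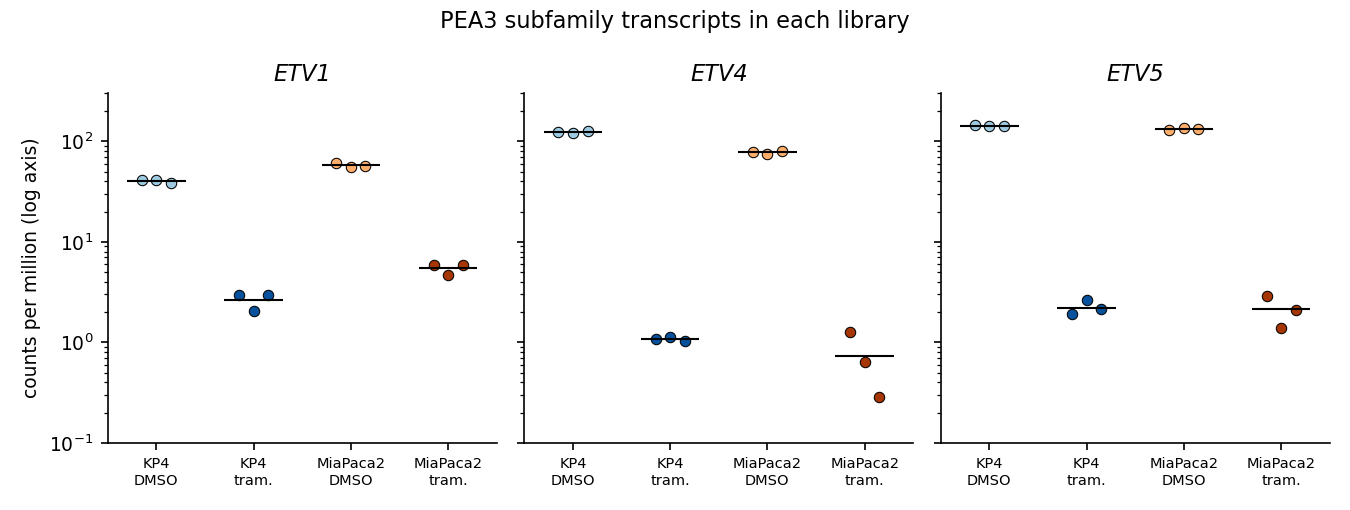
CPM (log axis) of ETV1, ETV4 and ETV5 in each of the 12 libraries, by group; points are libraries and bars are means. The 3 genes lie between 39.0 and 145 CPM in DMSO and between 0.285 and 5.92 CPM in trametinib (tram.), and the 3 MiaPaca2 trametinib libraries spread most for ETV4.

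Among the ternary complex factors, ELK3 (chr12:96194382-96269835), which acts as a repressor on SRF targets until ERK phosphorylates it, was the one with a large change. Its levels in KP4 were 226, 220.2 and 219.6 CPM in DMSO and 78.1, 78.6 and 83.7 CPM in trametinib. MiaPaca2 had 136, 153 and 147 CPM in DMSO and 63.7, 57.1 and 62.1 CPM in trametinib. All DMSO libraries were above all trametinib libraries of the same line, with log2 fold changes of -1.47 ± 0.05 (edgeR adjusted p = 2.55e-18) and -1.25 ± 0.05 (adjusted p = 5.24e-17). ELK3 ranked 315 from the largest fall in KP4 and 519 in MiaPaca2.

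ELK1 (chrX:47635521-47650604), the best studied ternary complex factor, changed little. In KP4 it fell from 224, 233 and 224 CPM to 179, 181 and 179.9 CPM, a log2 change of -0.34 ± 0.04 (edgeR adjusted p = 5.33e-07). In MiaPaca2 it had 141, 161 and 153 CPM in DMSO and 135, 137 and 142 CPM in trametinib, and the groups overlapped. The log2 change there was -0.14 ± 0.05 and passed the test (adjusted p = 0.00956).

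ELK4 (chr1:205597556-205631962), the third ternary complex factor, had 62.9, 68.9 and 69.1 CPM in KP4 DMSO and 66.2, 64.6 and 65.0 CPM in KP4 trametinib, with overlapping libraries and a log2 change of -0.04 ± 0.06 (edgeR adjusted p = 0.639). In MiaPaca2 it had 82.3, 71.7 and 70.3 CPM in DMSO and 70.5, 65.4 and 68.1 CPM in trametinib. The log2 change of -0.14 ± 0.06 just passed the test (adjusted p = 0.0480) although the libraries overlapped. It failed in 11 of 21 alternative analyses. Among these were limma-voom (adjusted p = 0.0576), library-size scaling (0.103), no robust shrinkage (0.0527), and leaving out MiaPaca2 DMSO replicate 1 (log2 change -0.06, adjusted p = 0.319), MiaPaca2 trametinib replicate 2 (0.167) or 3 (0.0932), or replicate 2 or 3 of KP4 DMSO (0.0559 and 0.0551) or of KP4 trametinib (0.0591 and 0.0603). ELK4 is thus a member without a clear response in either line.

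ETS1 (chr11:128458761-128587558), a founding member of the family and an effector of invasion genes, rose in both lines. KP4 levels were 246, 234 and 234 CPM in DMSO and 307, 306 and 314 CPM in trametinib, and MiaPaca2 levels were 97.6, 107 and 93.1 CPM in DMSO and 246, 244 and 245 CPM in trametinib. No libraries overlapped between conditions. The log2 fold change was 0.38 ± 0.04 in KP4 (edgeR adjusted p = 5.51e-08) and 1.30 ± 0.04 in MiaPaca2 (adjusted p = 1.25e-18), and the difference of -0.93 ± 0.06 was called (adjusted p = 8.31e-12). KP4 had 2.40 times the ETS1 level of MiaPaca2 in DMSO and 1.26 times in trametinib.

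ETS2 (chr21:38805307-38824955), the close paralog of ETS1, was called in opposite directions in the lines. In KP4 it fell from 23.6, 19.8 and 19.9 CPM to 14.1, 13.6 and 12.6 CPM, with no overlap and a log2 change of -0.65 ± 0.10 (edgeR adjusted p = 5.06e-06). In MiaPaca2 it had 23.3, 26.7 and 26.3 CPM in DMSO and 31.1, 33.9 and 26.2 CPM in trametinib. The lowest trametinib library lay within the DMSO range, and the log2 change was 0.25 ± 0.09 (adjusted p = 0.0203). This MiaPaca2 call was lost when only the libraries compared were fitted (adjusted p = 0.0686) and without KP4 trametinib replicate 1 (0.0567), MiaPaca2 DMSO replicate 1 (0.0973), MiaPaca2 trametinib replicate 1 (0.0670) or replicate 2 (0.152). The difference between the responses, -0.91 ± 0.14 (adjusted p = 8.18e-06), was called in each of 20 alternatives, with adjusted p-values up to 7.58e-05.

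**Figure D2:**
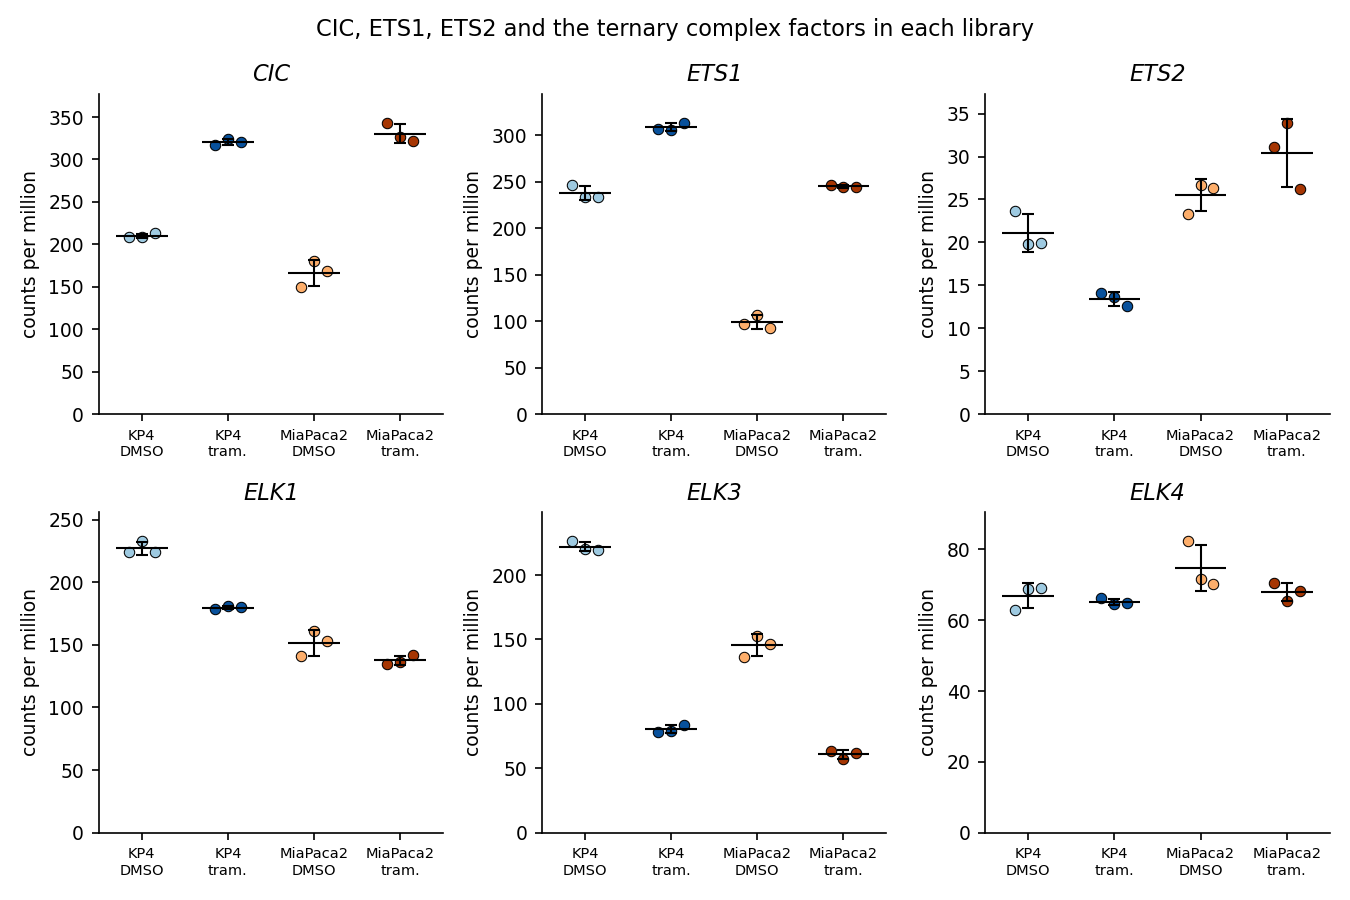
CPM of CIC, ETS1, ETS2, ELK1, ELK3 and ELK4 in each library, each panel on its own axis from 0; points are libraries, long bars are means and whiskers are SD (n = 3). CIC and ETS1 are higher and ELK3 is lower in trametinib (tram.) in both lines, while ETS2 is lower in KP4 and its MiaPaca2 groups overlap.

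The responses of the lines were compared directly for each member. The difference, KP4 minus MiaPaca2, was called for 6 members (CIC, ETV1, ELK1, ELK3, ETS1 and ETS2), all negative, and not for ETV4, ETV5 and ELK4. Of all genes tested 36.1% were called, with 19.9% of all genes negative and 16.2% positive. ELK1 (-0.20 ± 0.06, edgeR adjusted p = 0.0153) and ELK3 (-0.22 ± 0.07, adjusted p = 0.0174) were the smallest of the 6. Both were lost with RLE scaling (adjusted p = 0.0617 and 0.0603), with DESeq2 (0.0712 and 0.0725) and without KP4 trametinib replicate 1 (-0.13 and -0.14 on the log2 scale, adjusted p = 0.171 and 0.200). ELK1 was also lost without KP4 DMSO replicate 2 (0.0519) or MiaPaca2 trametinib replicate 3 (0.0540), and ELK3 without KP4 trametinib replicate 2 (0.0501) or MiaPaca2 trametinib replicate 1 (0.0670).

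These differences can also be read as a change in the gap between the lines. In DMSO, 5 members were higher in KP4 (CIC, ETV4, ELK1, ELK3 and ETS1) and 3 lower (ETV1, ELK4 and ETS2), where 63.0% of all genes were called, 31.9% higher and 31.1% lower. In trametinib 3 were higher (ELK1, ELK3 and ETS1) and 2 lower (ETV1 and ETS2), where 55.2% of all genes were called, 26.0% higher and 29.2% lower. Among the 6 members whose responses differed, the fitted gap was smaller in trametinib for 4, CIC, ELK1, ELK3 and ETS1, and wider for ETV1 and ETS2. ETS2 went from 1.21 times lower in KP4 in DMSO to 2.27 times lower in trametinib. The DMSO call of ETS2 (log2 difference -0.27 ± 0.09, edgeR adjusted p = 0.0151) was lost without KP4 DMSO replicate 2 (0.0802) or 3 (0.0765). The DMSO call of ELK4 (-0.16 ± 0.06, adjusted p = 0.0212) was lost without KP4 DMSO replicate 1 (0.143) or MiaPaca2 DMSO replicate 1 (-0.08, adjusted p = 0.185) and with library-size scaling (0.0674). ETV4 in trametinib differed between the lines by 0.56 ± 0.29 (adjusted p = 0.112). Without MiaPaca2 trametinib replicate 1, which has 31 of the 51 ETV4 counts of its group, that value was 1.27 (adjusted p = 8.15e-04), wider than the 0.67 in DMSO.

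**Figure D3:**
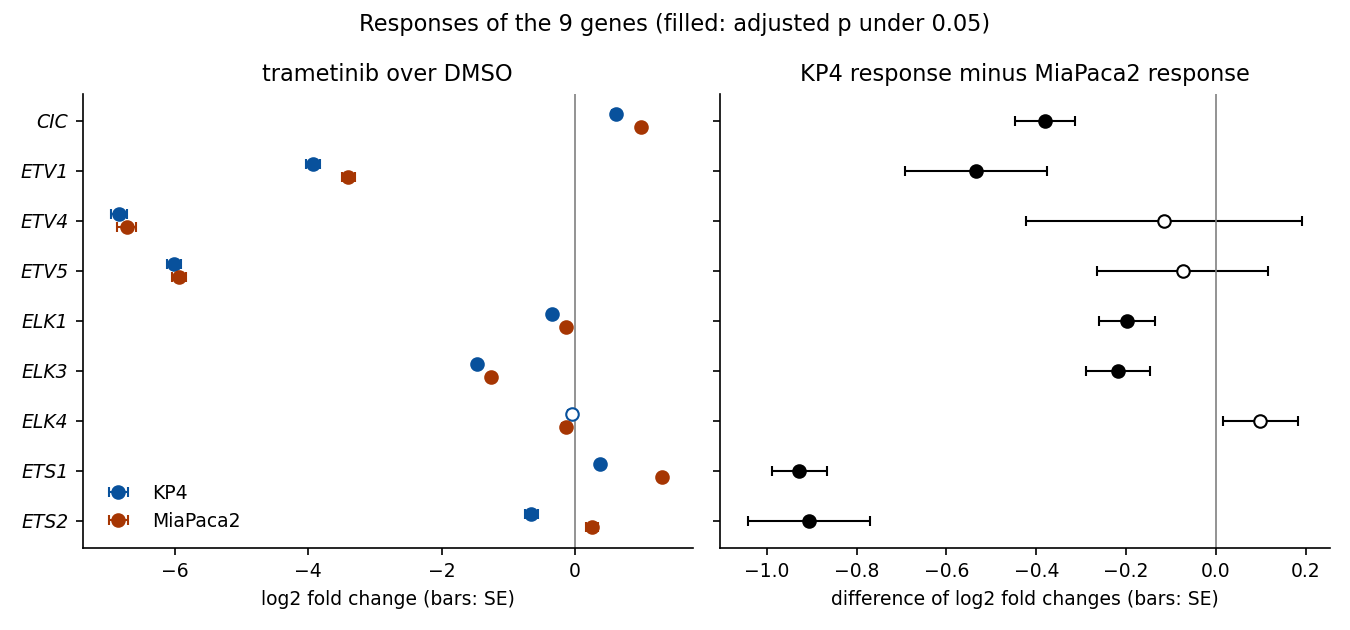
Left, log2 fold change of trametinib over DMSO for the 9 genes in KP4 (blue) and MiaPaca2 (orange); right, the KP4 response minus the MiaPaca2 response. Bars are SE and filled points have an adjusted p under 0.05: ETV4 and ETV5 fall furthest on the left, at -5.94 or below, and ETS1 and ETS2 lie furthest from 0 on the right, at -0.93 and -0.91.

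Levels of different genes were compared as CPM per kilobase of exon, and order and overlap of libraries hold for this length only. In KP4 DMSO, ELK1 was highest (66.8 ± 1.47), followed by ELK3 (47.8 ± 0.795), ETV4 (34.5 ± 1.02) and ETS1 (33.3 ± 1.01), which overlapped, ETV5 (24.6 ± 0.333) and CIC (22.1 ± 0.278). ELK4 (5.51 ± 0.293) came next, above ETS2 (4.59 ± 0.476) and ETV1 (4.22 ± 0.147), which overlapped. In KP4 trametinib the order was ELK1 (52.9 ± 0.256), ETS1 (43.2 ± 0.603), CIC (33.8 ± 0.398), ELK3 (17.2 ± 0.666), ELK4 (5.37 ± 0.0681), ETS2 (2.92 ± 0.168), ETV5 (0.383 ± 0.0627), and then ETV4 (0.300 ± 0.0115) and ETV1 (0.276 ± 0.0543), which overlapped. ETS1 and CIC thus moved up past ELK3 and past ETV4, and the PEA3 genes became the 3 lowest.

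MiaPaca2 DMSO had ELK1 (44.6 ± 3.04) first, then ELK3 (31.3 ± 1.83), ETV5 (23.0 ± 0.664), ETV4 (21.6 ± 0.578), CIC (17.5 ± 1.62) and ETS1 (13.9 ± 1.00), with no overlap between neighbours. ELK4 (6.16 ± 0.541), ETV1 (6.02 ± 0.261) and ETS2 (5.54 ± 0.406) followed, and each overlapped the next. In MiaPaca2 trametinib ELK1 (40.5 ± 1.07) was followed by CIC (34.8 ± 1.20) and ETS1 (34.3 ± 0.165), which overlapped, then ELK3 (13.1 ± 0.745), and ETS2 (6.62 ± 0.856) and ELK4 (5.60 ± 0.209), which overlapped. ETV1 (0.568 ± 0.0746), ETV5 (0.367 ± 0.129) and ETV4 (0.202 ± 0.136) were again lowest, each overlapping the next.

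Summed per length, the 8 ETS members stood at 221 ± 1.43 CPM per kilobase with DMSO and 123 ± 1.11 with trametinib in KP4, and at 152 ± 5.35 and 101 ± 0.841 in MiaPaca2. Of that sum the PEA3 genes held 28.6% ± 0.464 with DMSO and 0.782% ± 0.0144 with trametinib in KP4, and 33.3% ± 1.23 and 1.12% ± 0.280 in MiaPaca2. The share of ETS1 was 15.0% ± 0.361 and 35.2% ± 0.198 in KP4 and 9.13% ± 0.497 and 33.8% ± 0.179 in MiaPaca2. ELK1, ELK3 and ELK4 together held 54.3% and 61.6% in KP4, and 53.9% and 58.5% in MiaPaca2. Over all 28 ETS family genes, the PEA3 share was 18.1% ± 0.211 with DMSO and 0.349% ± 0.00769 with trametinib in KP4, and 19.2% ± 0.505 and 0.410% ± 0.102 in MiaPaca2. The summed level of the 28 was 349.5 ± 1.36 and 275 ± 1.37 CPM per kilobase in KP4, and 264 ± 6.72 and 277 ± 3.53 in MiaPaca2. These shares are of transcripts and say nothing of protein.

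**Figure D4:**
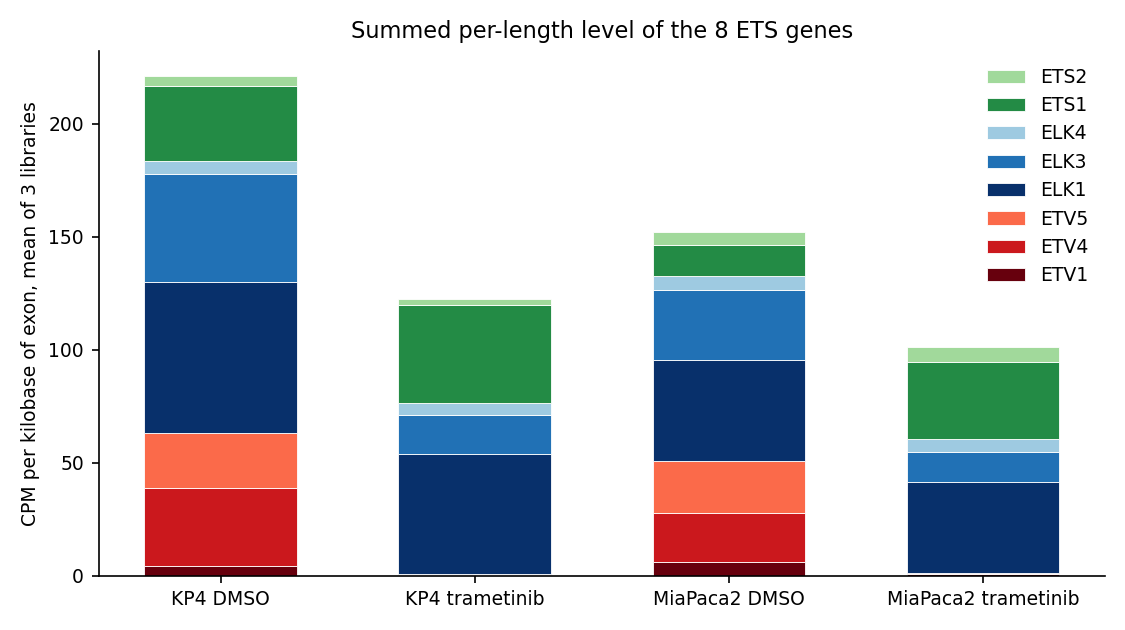
Stacked mean levels (CPM per kilobase of exon, 3 libraries per group) of the 8 ETS members in the 4 groups, with PEA3 genes in red, ternary complex factors in blue and ETS1 and ETS2 in green. The red part makes up 28.6% and 33.3% of the DMSO bars and 0.782% and 1.12% of the trametinib bars.

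The other 20 ETS family genes gave a mixed picture. Of these, 12 passed the filter on low counts, and ERG, FLI1, FEV, ETV3L, SPDEF, SPI1, SPIB and SPIC were too low. In KP4, 6 rose and 3 fell with a median log2 change of 0.11 (0.0 over all genes tested), and in MiaPaca2, 7 rose and 2 fell with a median of 0.61 (0.05 over all genes). Called higher were thus 50% in KP4 and 58.3% in MiaPaca2, against 23.6% and 34.1% of all genes. The KP4 median and share include ELF5 (0 counts) and EHF (1 count per group). Both passed the filter through their MiaPaca2 counts, ELF5 only through those in trametinib (223, against 20 in DMSO). ETV7 passed only through its trametinib counts. ELF3, with 3 counts over the KP4 DMSO libraries, had almost no room to fall in KP4. The shares called higher include the rises of these genes, which carry no weight for the excess over all genes. ETV7, a repressor also known as an interferon-induced gene, rose from a trace in both lines, 9 counts over the KP4 DMSO libraries and 5 over those of MiaPaca2. It went from 0.109 ± 0.128 to 1.47 ± 0.164 CPM in KP4 (log2 change 3.64 ± 0.51, edgeR adjusted p = 1.08e-06) and from 0.0722 ± 0.0525 to 2.44 ± 0.434 CPM in MiaPaca2 (5.005 ± 0.54, adjusted p = 7.69e-09). The size rests on single libraries: the log2 change was 5.06 without KP4 DMSO replicate 3, which has 7 of the 9 counts, and 5.70 without MiaPaca2 DMSO replicate 3, which has 3 of the 5. ELF3, an epithelial ETS factor, went from 3 to 43 counts over the KP4 groups, a ratio of 13.8 with an exact 95% interval of 4.41 to 69.4 that covers counting error only. All 3 of the DMSO counts are in replicate 2, without which the fitted log2 change moved from 3.62 to 6.72. In MiaPaca2 it rose from 24.5 ± 3.79 to 44.3 ± 2.64 CPM. ELF5, another epithelial factor, had 0 counts in KP4 and rose in MiaPaca2 from 0.287 ± 0.100 to 3.17 ± 0.625 CPM (log2 change 3.46, adjusted p = 1.22e-07).

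Falls in this list were small. ETV6, a repressor, fell in KP4 by 0.46 on the log2 scale (edgeR adjusted p = 1.72e-06). GABPA, which drives housekeeping and mitochondrial genes, fell in KP4 by 0.23 (adjusted p = 0.00989), a call lost without KP4 DMSO replicate 1 (0.0655) or KP4 trametinib replicate 3 (0.0839). In MiaPaca2 GABPA fell by 0.18 (adjusted p = 0.0335), which was lost without MiaPaca2 DMSO replicate 1 (log2 change -0.12, adjusted p = 0.176), without any 1 of the 3 MiaPaca2 trametinib libraries (0.0587 to 0.0782) and with library-size scaling (0.0662). EHF, an epithelial factor, had 1 count in each KP4 group. Its MiaPaca2 DMSO libraries had 61.9, 35.4 and 60.9 CPM, with replicate 2 below every trametinib library (36.2, 38.6 and 40.1 CPM). The mean fell there from 52.7 ± 15.0 to 38.3 ± 1.99 CPM (log2 change -0.46, or -0.68 to -0.33 leaving out each library in turn). This passed the test (edgeR adjusted p = 0.0376). That call was lost in 9 of 21 alternatives: when only the libraries compared were fitted (0.0839), without replicate 1 or 3 of MiaPaca2 DMSO (0.150 and 0.129), without replicate 1, 2 or 3 of MiaPaca2 trametinib (0.0996, 0.0719 and 0.0613), without replicate 1 or 2 of KP4 DMSO (0.05001 and 0.0668) and without KP4 trametinib replicate 3 (0.0674).

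Known CIC targets outside the ETS family mostly fell, as the PEA3 genes did. Of 15, 12 fell and 1 rose in KP4 with a median log2 change of -2.25, and 13 fell and 2 rose in MiaPaca2 with a median of -1.66. Called lower were thus 80.0% in KP4 and 86.7% in MiaPaca2, against 23.6% and 29.5% of all genes. The list was chosen with earlier results of these data known, so this excess is a description and not a test. DUSP6 fell by 6.63 on the log2 scale in KP4 and fell by 5.77 in MiaPaca2 (edgeR adjusted p = 4.16e-08 and 1.07e-06), and SPRY4, an inhibitor of receptor tyrosine kinase signalling, fell by 6.60 in KP4 and fell by 6.03 in MiaPaca2 (adjusted p = 5.40e-28 and 7.46e-28). The genes that rose were CCND2, cyclin D2, with 0.22 ± 0.08 in KP4 (adjusted p = 0.0331) and 0.56 ± 0.10 in MiaPaca2 (adjusted p = 4.35e-05), and in MiaPaca2 EPHA4, an Eph receptor, with 1.11 ± 0.07 (adjusted p = 2.20e-10). CCND2 in KP4 was not called without the filter on low counts (0.0533), or without replicate 2 or 3 of KP4 DMSO (0.0604 and 0.169) or of KP4 trametinib (0.100 and 0.127). SHC3, a signalling adaptor, had 2 and 1 counts in the KP4 groups, and no fold is given there, but it is part of the KP4 share and median. The 4 targets with an octamer in the window were all called lower in both lines, as were 16.9% of all genes. So were SPRY2, SPRY4, SPRED1, SPRED2 and PHLDA1, whose windows held no octamer, while EPHA4 and SHC3, also without one, were not. CIC, with an octamer, was called higher in both lines. Whether an octamer goes with a fall was not tested. Of these targets with an octamer, SPRED3 changed by -2.40 in KP4 and -2.00 in MiaPaca2, VGF by -4.29 and -2.96, and MAFF by -2.25 and -0.60.

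Transcripts of the genes that carry the ERK signal to CIC and the ETS proteins had medians near 0. Of 27, 10 rose and 4 fell in KP4 (median log2 change 0.08) and 9 rose and 11 fell in MiaPaca2 (median 0.00). Called in either direction were 51.9% in KP4, against 47.2% of all genes, and 74.1% in MiaPaca2, against 63.6%, so that these counts lie near the background. The CIC partners, picked after their values were seen, were called higher in both lines, as were 18.6% of all genes. ATXN1 rose by 0.49 ± 0.11 in KP4 (edgeR adjusted p = 0.00214) and 1.45 ± 0.13 in MiaPaca2 (adjusted p = 5.84e-08), and ATXN1L by 0.20 ± 0.05 (adjusted p = 9.58e-04) and 0.48 ± 0.05 (adjusted p = 2.00e-09). RPS6KA2, YWHAH, MED23 and CAMK2D of the same list were also called higher in both lines. RPS6KA2, an ERK-activated kinase, had the largest rise in both lines, 0.82 ± 0.28 in KP4 (adjusted p = 0.0154, and 0.0521 without KP4 DMSO replicate 2) and 1.58 ± 0.24 in MiaPaca2 (adjusted p = 3.35e-06). RPS6KA1, of the same kinase family, rose by 0.52 ± 0.05 in KP4. Falls were led in KP4 by PRKCA, protein kinase C alpha (-0.66 ± 0.06), and RPS6KA3 (-0.32 ± 0.05), and in MiaPaca2 by the phosphoprotein-binding adaptors YWHAQ (-0.77 ± 0.04) and YWHAB (-0.43 ± 0.04). COP1, the ligase for PEA3 proteins, changed by 0.08 ± 0.07 in KP4 (adjusted p = 0.340) and rose by 0.30 ± 0.07 in MiaPaca2 (adjusted p = 4.48e-04).

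Immediate early targets of the ternary complex factors and SRF mostly fell in KP4. Of 12, 9 fell and 2 rose in KP4 (median log2 change -1.64), and 5 fell and 5 rose in MiaPaca2 (median 0.10). In KP4, 75.0% were lower, against 23.6% of all genes. This share includes EGR2 and EGR4, which passed the filter on low counts only through KP4 DMSO, where they were highest. Their KP4 falls therefore carry no weight in it. EGR2 had 42 counts over the KP4 DMSO libraries, 8 over those of KP4 trametinib and 5 over each MiaPaca2 group. EGR4 had 68 and 4 in KP4 and 30 and 9 in MiaPaca2. Both genes are also part of the medians and of the MiaPaca2 shares. In MiaPaca2, 41.7% were lower and 41.7% higher, against 29.5% and 34.1% of all genes, which is near the background. The test of the difference between the responses called 7 of the 12 negative and 1 positive, or 58.3% and 8.33%, against 19.9% and 16.2% of all genes. EGR1, a zinc finger factor, changed by -4.69 in KP4 and -4.29 in MiaPaca2 (edgeR adjusted p = 4.58e-07 and 1.05e-06), and its relative EGR3 by -4.60 and -2.99 (adjusted p = 1.58e-09 and 8.75e-07). EGR3 rests on 7 counts over the KP4 trametinib libraries and 11 over those of MiaPaca2. Leaving out each library in turn gave EGR3 values of -4.82 to -4.45 in KP4 and -3.22 to -2.66 in MiaPaca2. ATF3, a stress-induced factor, rose by 0.80 ± 0.25 in KP4 (adjusted p = 0.0244) and 2.37 ± 0.27 in MiaPaca2 (adjusted p = 3.47e-05, and 2.96 without MiaPaca2 DMSO replicate 2), and the AP-1 subunit JUNB by 0.12 ± 0.05 (adjusted p = 0.0472) and 1.53 ± 0.05 (adjusted p = 1.29e-18). The KP4 calls of both were lost without the filter on low counts (0.0652 for ATF3 and 0.0965 for JUNB) and without replicate 1 or 3 of KP4 DMSO (0.0825 and 0.0754 for ATF3, 0.259 and 0.0856 for JUNB) or replicate 1 or 2 of KP4 trametinib (0.0611 and 0.0621 for ATF3, 0.0964 and 0.108 for JUNB). ATF3 was also lost without KP4 trametinib replicate 3 (0.0521), and JUNB without robust shrinkage (0.0511) or without any 1 of the MiaPaca2 trametinib libraries (0.0600 to 0.0613). SRF itself changed by 0.03 ± 0.05 in KP4 (adjusted p = 0.622) and fell by 0.26 in MiaPaca2 (adjusted p = 5.64e-05).

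Protease genes with classical PEA3 and ETS elements were the last list. MMP3, MMP7 and MMP13 were too low to test. Of the other 6, 4 fell and 1 rose in KP4 (median log2 change -1.38), and 2 fell and 3 rose in MiaPaca2 (median -0.20). In KP4, 66.7% were lower, against 23.6% of all genes, while the MiaPaca2 shares of 33.3% lower and 50% higher rest on 6 genes and lie closer to the background of 29.5% and 34.1%. MMP1, interstitial collagenase, went from 908 counts to 3 in KP4, a ratio of 315 with an exact 95% counting interval of 108 to 1531 (fitted log2 change -8.12, and -8.97 without KP4 trametinib replicate 2, which has 2 of the 3 counts), and fell in MiaPaca2 by 2.27 on the log2 scale (edgeR adjusted p = 4.72e-06). MMP9, gelatinase B, fell by 2.31 in KP4 (adjusted p = 2.37e-06). PLAUR, the urokinase receptor, was called lower in both lines, with log2 changes of -1.91 in KP4 and -1.32 in MiaPaca2 (adjusted p = 9.53e-14 in MiaPaca2). PLAU, urokinase, rose by 0.76 ± 0.11 in KP4 (adjusted p = 3.48e-04) and 1.35 ± 0.11 in MiaPaca2 (adjusted p = 3.50e-06), and MMP14, a membrane-bound protease, rose by 1.23 ± 0.14 in MiaPaca2 (adjusted p = 5.95e-05).

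**Figure D5:**
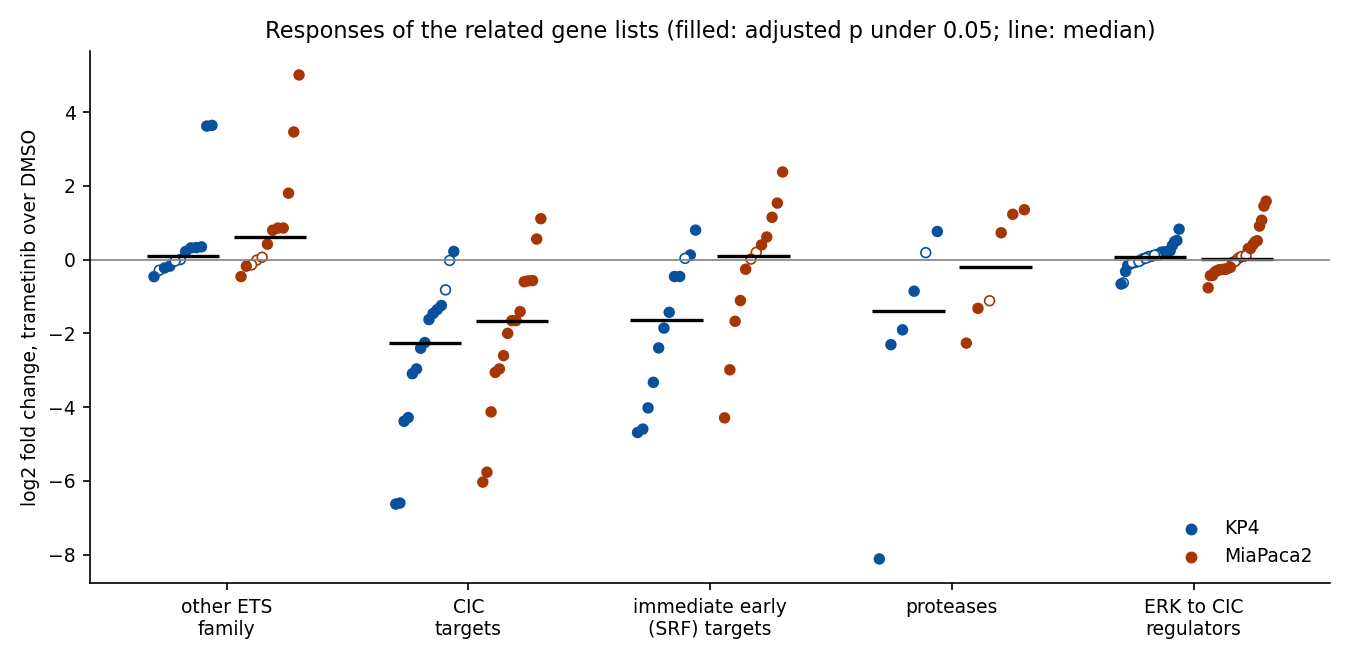
Log2 fold change of trametinib over DMSO for every tested gene of 5 related lists, in KP4 (blue) and MiaPaca2 (orange); filled points have an adjusted p under 0.05 and black lines are list medians. CIC targets have medians of -2.25 and -1.66, immediate early targets of -1.64 and 0.10, and ERK to CIC regulators of 0.08 and 0.00; ELF5, EHF and SHC3 in KP4 rest on at most 3 counts per group and are drawn at their fitted values.

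Across the 12 libraries, the genes whose log2 CPM was most like each member were found by Pearson's r, as a description over libraries that fall into 4 groups. For ETV4 these were GPR3 (0.994), ETV5 (0.990) and STC1 (0.990), for ETV5 EPHA2 (0.996), SPRED2 (0.995) and HMGA1 (0.995), and for ETV1 MRPL15 (0.993), SPRED3 (0.992) and PCGF2 (0.992). CIC was most like MAN2B2 (0.996), CDH3 (0.995) and SLC38A10 (0.995), ETS1 most like CARMIL1 (0.997), NMNAT2 (0.996) and EXT1 (0.996), and ETS2 most like STEAP1B-AS1 (0.959), AGER (0.955) and SNX21 (0.951). ELK1 was nearest to PSMC3IP (0.994), RASGRF2 (0.993) and CARD10 (0.992), ELK3 to FHOD1 (0.997), NIBAN2 (0.995) and EMG1 (0.994), and ELK4 to SEPTIN7 (0.912), MKLN1 (0.905) and MRPS31 (0.900). ETV4 and ETV5 are thus the only pair of members in which 1 is among the 3 nearest genes of the other. With CIC, r was -0.945 for ETV1, -0.938 for ETV5, -0.915 for ETV4, -0.800 for ELK3 and -0.618 for ELK4. It was -0.222 for ETS2, -0.194 for ELK1 and 0.837 for ETS1. Opposite responses pull r down, but the difference between the lines enters r too. ETS1 rose and ELK1 fell in both lines, and their r was 0.341. The values thus mix responses and line differences, and are no evidence of a link to CIC beyond the responses above.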

How the data were processed

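The authors deposited whole-number read counts per gene for 12 libraries, not normalized. The submitters' processing notes name STAR, DESeq2 and the genome build GRCh38 (hg38). Which versions, counting program, annotation and strand setting were used is not given in the sources used here. GENCODE 29 held all 58735 identifiers and supplied positions and lengths, and 0 columns matched no sample. Groups came from the sample labels. Genes passing filterByExpr (16133) were TMM-scaled and tested with edgeR 4.0.16 under R 4.3.3, beside limma 3.58.1 and DESeq2 1.42.0: quasi-likelihood test with robust shrinkage, 1 mean per group over all 12 libraries, Benjamini-Hochberg adjustment over all genes tested, threshold 0.05. The biological coefficient of variation was 5.47%. SE is the log2 change divided by the square root of the F statistic. For very large changes on few counts, as for ETV4 and ETV5, this SE can be too small. The members and gene lists were chosen with earlier results of these data known, so the shares called in each list are descriptions and not tests. List genes are named where they are among the 2 largest rises or falls past the test in a line, plus SPRED3, VGF and MAFF (octamer in the promoter), SRF, COP1, ATXN1 and ATXN1L, chosen for their role after their values were seen. One marker of the ductal list is not reported here, and the counts and sums given hold the other 8. Alternatives covered scaling, filtering, limma-voom, DESeq2, robust shrinkage, the libraries fitted, a replicate block and leaving out each library. Promoter sequences are from RefSeq. Floors and intervals cover counting error only.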

Additional observations from a re-analysis of the deposited data

Results flagged for a closer look

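The response to trametinib differed between KP4 and MiaPaca2 for 6 of the 9 genes by the test of the difference itself, where 36.1% of all genes tested did. The KP4 response minus the MiaPaca2 response, on the log2 scale, was -0.533 for ETV1, -0.927 for ETS1, -0.906 for ETS2, -0.198 for ELK1, -0.218 for ELK3 and -0.381 for CIC. ETS2 combined a fall in KP4 with a weakly called rise in MiaPaca2, while the other 5 moved the same way in both lines by different amounts. The calls of ETV1, ELK1 and ELK3 were lost in 1, 5 and 5 of 20 alternative analyses, and those of ETS1, ETS2 and CIC in 0 of 20.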

How the results depend on the processing

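Counts of genes and of members called stayed within 1.5 times of the values given under all alternatives. For members, 0 of 750 alternative values of a called difference changed sign. Of 186 alternative values of differences that were not called, 7 did: the response difference of ETV4 (up to 0.59) and ETV5 (up to 0.21), and the difference between the lines in trametinib of ETV5 (down to -0.17) and CIC (0.0041). For the response to trametinib in KP4, 0 of 189 alternative values of members changed a call. With the longest transcript in place of the summed exons as length, the PEA3 share of the 8 ETS members moved by more than 1 SD to 32.0% in KP4 DMSO, 0.879% in KP4 trametinib and 37.1% in MiaPaca2 DMSO. The order of genes moved too: ETV1 passed ETS2 in KP4 DMSO and ELK4 in MiaPaca2 DMSO, and ETS1 passed CIC in MiaPaca2 trametinib. ETV5 and ETV4 in MiaPaca2 DMSO then stood at 32.4 and 32.1 CPM per kilobase, and ELK3 and ETV4 in KP4 DMSO at 52.8 and 51.2. No clear pairing by replicate number was seen, which does not exclude it. Deviations of same-numbered libraries of different groups correlated at -0.0239 to 0.0326, and those of differently numbered libraries at -0.0276 to 0.0290. Between KP4 DMSO and MiaPaca2 DMSO each library correlated best with its own number, but not between every pair of groups. With a replicate block, genes called were 3764 higher and 3766 lower in KP4 (3805 and 3812 without it) and 5481 and 4730 in MiaPaca2 (5500 and 4755). ELK4 in MiaPaca2 was not called with the block (adjusted p = 0.0546), and no other member call changed. DESeq2 called ETV4 higher in KP4 than in MiaPaca2 in trametinib (adjusted p = 0.0486). PRKCA in MiaPaca2 moved from -0.27 to -0.16 without MiaPaca2 DMSO replicate 2. Low counts in trametinib limit the precision of the ETV4 and ETV5 responses.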
